A study of Rattus norvegicus with 6 samples.

Results

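Neuropeptide genes of the rat hippocampus were followed across sedentary rest, mild running and intense running. The 10 genes were Npy, Sst, Vip, Cck, Pdyn, Tac1, Gal, Trh, Crh and Nts, chosen by name as well-known neuropeptide precursors, and every non-control probe carrying one of these names was taken. This gave 10 of the 35561 gene names and 11 of the 41012 probes on the array, with 2 probes for Nts and 1 for each other gene. The probes of Npy, Sst, Cck, Tac1, Gal and Crh were each printed as 10 spots, and those of Vip, Pdyn, Trh and Nts as 1 spot. Matching through RefSeq accessions as well as names added 0 probes.

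The RNA came from whole hippocampi of male Wistar rats that were 11 weeks old at the start. The sedentary controls (CONT) rested on the treadmill, the mild exercise group (ME) ran at 15 m/min, below the lactate threshold, and the intense exercise group (IE) ran at 40 m/min, above it. Training lasted 6 weeks, 60 min/day and 5 times/week, with a habituation to running under slight electric shocks of 1 week in ME and 4 weeks in IE, and some IE rats received further shocks later. IE rats that refused to run were excluded from the study. Tissue was not taken right after a run: the sample records give 24 or 36 h after the last session, and the study's methods give 2 days. RNA of 5 rats was pooled in each group, so that each of the 3 groups is 1 pool. Every pair of pools shared 1 array and then a further array on which the dyes were exchanged. Hence each comparison is 1 replicate, and the SD given with a ratio is that between the 2 arrays of a dye swap (n = 2); the pooling leaves no spread between rats to test against. A first slide carried the 4 arrays that hold CONT and a second slide those of IE against ME, so signals are compared within a slide.

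Neuropeptides are cut from precursor proteins in the secretory pathway, stored in dense-core granules and released on strong or repeated firing to act on G protein-coupled receptors. In the hippocampus, NPY, somatostatin, VIP and cholecystokinin mark classes of GABAergic interneurons, while dynorphin is a peptide of the dentate granule cells and their mossy fibres. Several of these precursor genes are classical targets of cyclic AMP signalling and of neuronal activity. In whole-tissue RNA, fewer cells of a type and less RNA per cell cannot be told apart.

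The 60-mer probes read short stretches of each transcript. The first 30 bases are shown for the 4 genes whose values are given in most detail and for the 2 Nts probes, which read the same transcript at different places. Positions are those of rn3, the build named in the array files of the first slide. On which exon or untranslated part they lie was not analysed here.

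Npy probe, chr4:78321255-78321314, plus strand: ttccgacccatttcccttgttgtcgttgta

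Pdyn probe, chr3:117196634-117196693, minus strand: aatcacatttatccaaattacttggaacat

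Gal probe, chr1:206089883-206089942, minus strand: agtcattctaggctaaaaagaatcttccgc

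Trh probe, chr4:126670185-126670244, minus strand: ctcagaaaggaagggtagaattgaaatgtt

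Nts probe 1, chr7:40495169-40495228, minus strand: ataaagagaaaaatcccttatattctgaaa

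Nts probe 2, chr7:40495070-40495129, minus strand: gttaattcttgacatgtgattctcatcctt

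The Nts probes lie 39 bases apart and do not overlap. The other probes lie at chr11:79183616-79183675 (Sst), chr1:36372337-36372396 (Vip), chr8:126512566-126512625 (Cck), chr4:32775851-32775909 (Tac1) and chr2:104709215-104709274 (Crh).

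Promoters of 8 of the 10 genes were found among 33469 rat promoters of RefSeq (GRCr8), each of 300 bases, from 250 before the annotated start to 50 after it. Cck and Crh were not among them. The cyclic AMP response element TGACGTCA, which is bound by CREB, was searched on both strands, and so was its core TGACG, which it contains. The whole element was found only in Sst among the 8, and in 1.83% of all promoters. The core was found in Sst, Vip, Tac1, Gal, Trh and Nts and not in Pdyn or Npy, and in 21.2% of all promoters. The windows of 30 bases below show these matches because cyclic AMP response elements are a textbook feature of peptide genes. Capitals mark the matching letters, and CGTCA is the core read on the other strand. In the order below, matches begin at 3, -97, -206, -63, -74 and -171 from the annotated start, so that of Sst lies after it. The Vip and Tac1 windows lie inside the annotated gene intervals, which begin at 44470232 and 36645344. A match of letters is a description of sequence and was not linked to the array values.

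Sst, GRCr8 chr11:90461536-90461565, plus strand: cgcctccttggcTGACGTCAgagagagagt

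Vip, GRCr8 chr1:44470371-44470400, plus strand: ggatcaccactgTGACGtctttcgaggagc

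Tac1, GRCr8 chr4:36645365-36645394, plus strand: tccctaaaattgCGTCAtttcgaacccaat

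Gal, GRCr8 chr1:210084618-210084647, minus strand: gcgctgagcgggTGACGcggcagctcccac

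Trh, GRCr8 chr4:126301819-126301848, minus strand: ccccggctctgcCGTCAgcacccctgtctt

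Nts, GRCr8 chr7:39461042-39461071, minus strand: attagggaagatCGTCActttcaatcaagg

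No neuropeptide gene differed between the pools by a limit that joins the study's fold range and its p threshold. A probe was called when Cy5 over Cy3 was 1.5 or more on one array and 0.75 or less on its swap, each with a software p below 0.01. Of the 11 probes, 0 were called in ME vs CONT, where 0.122% of all probes were, 0 in IE vs CONT, where 0.0293% were, and 0 in IE vs ME, where 0.0732% were. The study's figure of changed genes names the fold range only, so these shares come from a stricter limit. Without the p threshold 404 probes passed in ME vs CONT, 273 in IE vs CONT and 435 in IE vs ME. Neuropeptide probes made up 0 of these. The smallest software p of any neuropeptide probe on any array was 0.0368, for Crh on the second IE vs ME array. This p compares 2 pools on 1 array and says nothing of the spread between rats.

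A milder limit was read beside it: at least 1.2-fold in the same direction on both arrays, with both channels of both arrays well above background by the software's test. In ME vs CONT 0 of 11 probes passed it (0.997% of the 28896 probes of that brightness did). In IE vs CONT 1 of 11 passed it, that of Trh, in the direction of more signal in IE (0.216% of 28744 probes passed in that direction and 0.414% in either). In IE vs ME 0 of the 10 bright probes passed it (0.608% of 25803 did).

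**Figure D1:**
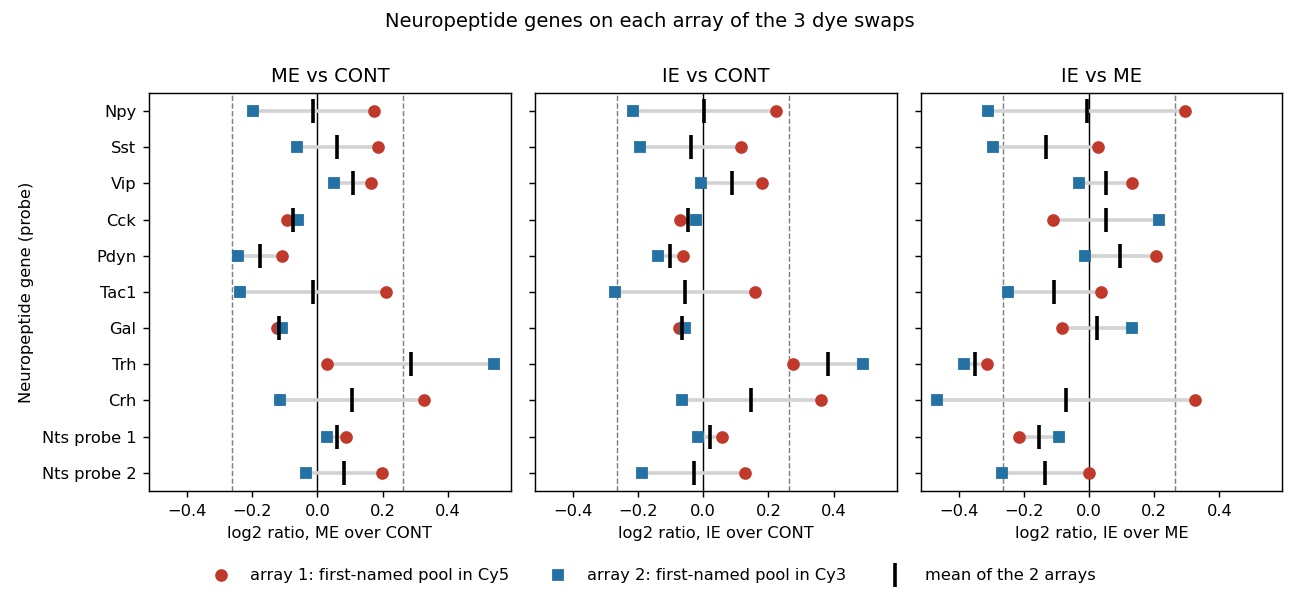
Log2 ratio of each neuropeptide probe (rows) in the 3 comparisons (panels). Red circles are array 1, with the first-named pool in Cy5, blue squares array 2, with the dyes swapped, black ticks their mean, and dashed lines 1.2-fold. The squares and circles of Npy, Tac1 and Crh lie on opposite sides of 0 in every panel, those of Gal and Cck nearly coincide in the panels against CONT, and Trh alone has both symbols beyond a dashed line in IE vs CONT.

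Apart from Trh, the mean log2 ratios were small. In ME vs CONT the 11 means ran from -0.18 to 0.29 and in IE vs CONT from -0.10 to 0.38, with Trh the highest in both. The next highest were Vip at 0.11 in ME vs CONT and Crh at 0.15 in IE vs CONT. In IE vs ME the 10 bright probes ran from -0.15 to 0.10. The median size of the mean was 0.083, 0.055 and 0.084 over bright neuropeptide probes in the 3 comparisons, beside 0.041, 0.045 and 0.048 over all bright probes. For 6, 7 and 9 of the 11 probes the mean was smaller than the SD between the 2 arrays of the swap. The 2 arrays also differ in dye, so this SD holds any difference between the dyes. Such a dye difference cancels in the mean, and the SD is not an error of the mean.

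NPY, an inhibitory peptide of interneurons that acts on Y receptors, gave a strong signal and almost the same amount in the 3 pools. On the first slide its processed signal was 5225, 4993, 5495 and 5583 in the readings of CONT, 5896 and 4790 in ME, and 5832 and 4806 in IE. The 4 Cy5 readings (5495 to 5896) all lay above the 4 Cy3 readings (4790 to 5225), whichever pool they held. The log2 ratio of ME over CONT was therefore 0.17 on one array and -0.20 on the other, with a mean of -0.01 ± 0.26. IE over CONT was 0.22 and -0.22 (mean 0.0037 ± 0.31), and IE over ME was 0.30 and -0.31 (mean -0.0067 ± 0.43). The 10 spots of Npy on one array differed far less than that, with an SD of 0.019 to 0.043 on the log2 scale.

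Somatostatin, made by dendrite-targeting interneurons, was also read brightly, between 10643 and 13594 on the first slide. Its log2 ratio was 0.19 and -0.06 in ME vs CONT, 0.12 and -0.19 in IE vs CONT, and 0.03 and -0.29 in IE vs ME. The arrays of each swap thus disagreed in direction, and the means were 0.06 ± 0.18, -0.04 ± 0.22 and -0.13 ± 0.23.

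VIP, a peptide of interneurons that inhibit other interneurons, was slightly above CONT on 3 of 4 arrays. ME over CONT was 0.17 and 0.05 (mean 0.11 ± 0.080), and IE over CONT was 0.18 and -0.0072 (mean 0.087 ± 0.13). IE over ME was 0.13 and -0.03. At 1 spot per array no spread between spots can be given for Vip.

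Cholecystokinin, a peptide of basket cells and of pyramidal cells, was slightly below CONT on all 4 arrays. The log2 ratios were -0.09 and -0.06 in ME (mean -0.076 ± 0.024) and -0.07 and -0.02 in IE (mean -0.047 ± 0.034), which are folds of 0.949 and 0.968. Both comparisons share the CONT pool, so they do not count as separate observations of a difference from it. In IE vs ME the arrays disagreed, at -0.11 and 0.22.

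Prodynorphin, the precursor of the opioid peptides that act on kappa receptors, had the largest mean difference among the probes that were bright in all 12 readings. Its processed signal on the first slide was 8274, 8180, 8097 and 7715 in CONT, 7677 and 6840 in ME, and 7831 and 7002 in IE. The 2 lowest readings were the Cy3 readings of the exercised pools, while in Cy5 the pools overlapped. ME over CONT was -0.11 and -0.24 (mean -0.18 ± 0.096, a fold of 0.885) and IE over CONT was -0.06 and -0.14 (mean -0.10 ± 0.054, a fold of 0.932). Of all bright probes, 7.59% had a mean at least that large in size in ME vs CONT and 19.4% in IE vs CONT. IE over ME was 0.21 and -0.01.

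The 3 genes most like Pdyn over the 6 log2 ratios were Slc6a6, Hp and Dyx1c1 (now Dnaaf4). Likeness was the Euclidean distance, which was 0.113, 0.123 and 0.126, and it was taken over 24716 probes bright in all 12 readings, of which those matched to a RefSeq symbol could be named. The 6 ratios come from 3 pools, so that many probes with small ratios are near each other.

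Tac1, the precursor of substance P and neurokinin A, repeated the dye pattern of Npy. Its ratio was 0.21 and -0.24 in ME vs CONT (mean -0.01 ± 0.32), 0.16 and -0.27 in IE vs CONT (mean -0.05 ± 0.30), and 0.04 and -0.25 in IE vs ME. On the first slide the 4 Cy5 readings of Tac1 (828 to 904) all lay above its 4 Cy3 readings (689 to 780).

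Galanin, an inhibitory peptide carried into the hippocampus largely by noradrenergic and cholinergic fibres, showed the closest agreement between the arrays of a swap in the comparisons with CONT. Its processed signal was 999, 990, 989 and 974 in CONT, 917 and 918 in ME, and 940 and 937 in IE. The exercised readings all lay below the CONT readings, within each dye and over both. ME over CONT was -0.12 and -0.11 (mean -0.12 ± 0.012, a fold of 0.923) and IE over CONT was -0.08 and -0.05 (mean -0.065 ± 0.015, a fold of 0.956). The SD between the 10 spots of Gal on these arrays was 0.030 to 0.044. Of all bright probes, 15.7% had a mean at least that large in size in ME vs CONT and 35.5% in IE vs CONT. As for Cck, both comparisons share the CONT pool and are not separate observations. On the second slide IE over ME was -0.08 and 0.13, with a mean of 0.02 ± 0.15.

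Readings of one dye can be set side by side on the first slide, where each dye holds 2 readings of CONT, 1 of ME and 1 of IE. This view was chosen after the values were seen, and the signals were normalized within arrays only. Gal was the only neuropeptide probe with both exercised readings below both CONT readings in each dye (2.91% of 28107 bright probes were), and Trh the only one with them above (2.45%). Npy lay below in Cy3 and above in Cy5. For Cck, Pdyn and Tac1 the exercised readings lay below in Cy3 and overlapped in Cy5, Vip lay above in Cy3 and overlapped in Cy5, Sst and Crh lay above in Cy5 and overlapped in Cy3, and both Nts probes overlapped in each dye.

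**Figure D2:**
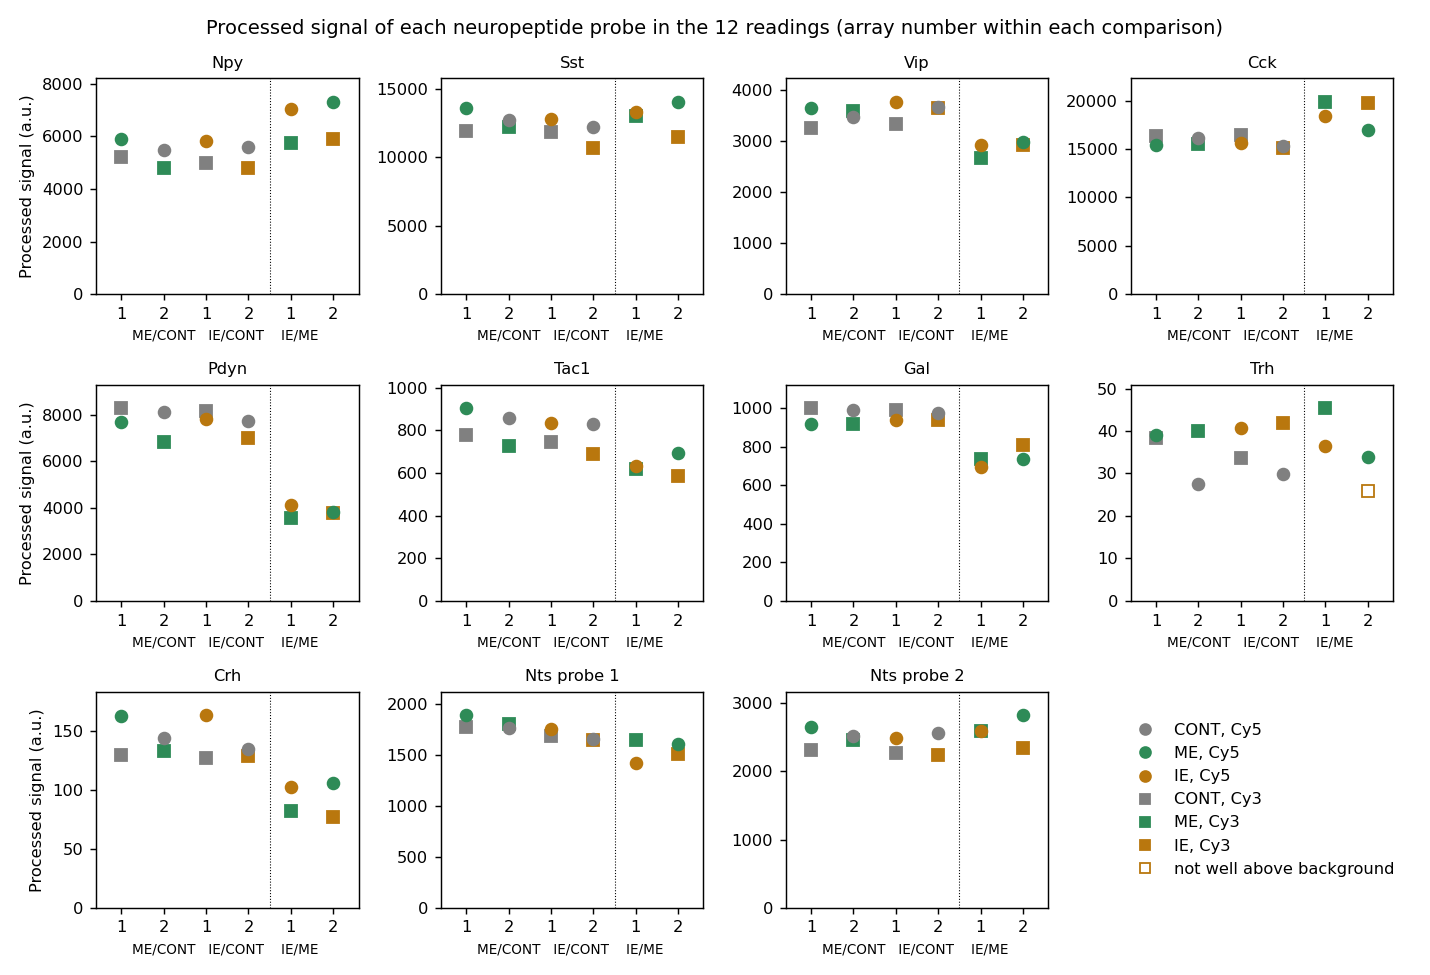
Processed signal (arbitrary units, from 0) of each probe in the 12 readings. Columns within a panel are the 2 arrays of ME vs CONT, of IE vs CONT and, right of the dotted line, of IE vs ME on the second slide; colour gives the pool, circles Cy5 and squares Cy3, and an open symbol was not well above background. Circles lie above squares for Npy and Tac1 on both slides, the grey symbols of Gal lie above the coloured ones on the first slide, and the symbols of Trh lie between 25.9 and 45.3.

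TRH, the thyrotropin-releasing hormone, which the brain also uses outside the hypothalamus, gave the largest mean ratios of the 10 genes and a signal close to background. On the first slide its processed signal was 38.3, 33.6, 27.5 and 29.8 in CONT, 39.1 and 40.1 in ME, and 40.6 and 41.9 in IE. The raw signal of this probe was only 1.37 to 1.88 times the local background there, though the software called all 8 readings well above background. Both exercised pools thus lay above the CONT readings, by 0.776 units for the closest pair.

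The log2 ratio of Trh in IE over CONT was 0.27 and 0.49, with a mean of 0.38 ± 0.15 (a fold of 1.30). In ME over CONT it was 0.03 and 0.54 (mean 0.29 ± 0.36), so that the arrays differed by more than their mean. The software's p was 0.317 and 0.105 on the IE arrays and 0.907 and 0.0587 on the ME arrays. With another background correction both values were smaller and short of 1.2-fold: IE gave 0.094 after normexp and loess and 0.13 without background subtraction, and ME gave 0.072 and 0.060. When the 6 arrays were fitted jointly the order of the pools turned, with 0.43 in ME and 0.23 in IE.

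On the second slide Trh went the other way. IE over ME was -0.31 and -0.38 (mean -0.35 ± 0.050), while IE over ME through CONT was 0.10, a gap of -0.45. One of the 4 readings there, IE in Cy3 at 25.9, was not well above background.

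CRH, the corticotropin-releasing hormone that drives the stress axis and is made by some hippocampal interneurons, was read at 2.25 to 4.12 times the local background on the first slide, with a processed signal of 127 to 163. Its log2 ratio was 0.33 and -0.12 in ME vs CONT (mean 0.11 ± 0.31), 0.36 and -0.06 in IE vs CONT (mean 0.15 ± 0.30), and 0.32 and -0.47 in IE vs ME (mean -0.07 ± 0.56). The swapped arrays disagreed in direction in each comparison, and Cy5 was the brighter dye in all of them.

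Neurotensin, a peptide of few hippocampal cells that acts on NTSR1 and NTSR2, was read by both of its probes with similar results. In ME vs CONT probe 1 gave 0.09 and 0.03 (mean 0.060 ± 0.042) and probe 2 gave 0.20 and -0.03 (mean 0.08 ± 0.16). In IE vs CONT their means were 0.02 ± 0.052 and -0.03 ± 0.22. In IE vs ME they were -0.15 ± 0.086 and -0.13 ± 0.19. Probe 1 gave -0.21 and -0.09 there, and probe 2 gave -0.0011, which is level, and -0.27.

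Dye and pool differences were of different size in these genes. The dye part, the log2 of Cy5 over Cy3 averaged over a swap, favoured Cy5 in 8 of 11 probes in each comparison. It is taken from the same difference between the 2 arrays as the SD, so the SD and the dye part are not separate results. The median size of the dye part over the neuropeptide probes was 0.12 in ME vs CONT, 0.11 in IE vs CONT and 0.13 in IE vs ME, beside 0.095, 0.10 and 0.11 over all bright probes. The largest dye parts were those of Crh in IE vs ME (0.40) and Npy in IE vs ME (0.30). Both arrays agreed in direction for 6 of 11 probes in ME vs CONT (28.6% of all bright probes did), for 4 of 11 in IE vs CONT (28.2%) and for 2 of the 10 bright ones in IE vs ME (26.7%). Those in ME vs CONT were Cck, Pdyn and Gal, which were lower, and Vip, Trh and Nts probe 1, which were higher. Those in IE vs CONT were Cck, Pdyn and Gal, lower, and Trh, higher. Those in IE vs ME were the 2 Nts probes, lower, which read the same transcript. Of these, probe 2 stood at only -0.0011 on array 1. Trh was lower on both IE vs ME arrays as well but was not bright in all 4 readings there.

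**Figure D3:**
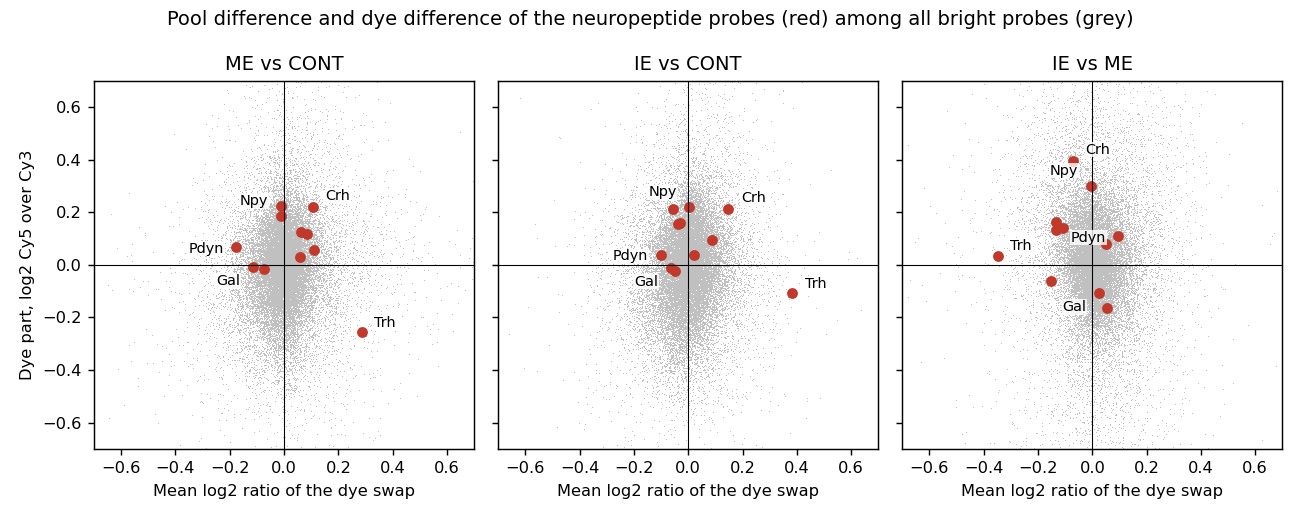
Mean log2 ratio of the dye swap (x axis, first-named pool over second) against the dye part, log2 Cy5 over Cy3 (y axis), for the neuropeptide probes (red, some named) and all probes well above background (grey; those past 0.7 on either axis are not drawn). Most red points lie above the horizontal line and near the vertical line, and only Trh lies far to one side.

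IE and ME were compared by 2 routes, directly on the second slide and through CONT on the first. For the 10 neuropeptide probes bright in all 12 readings, the 2 values differed by at most 0.115 in size, with a median of 0.030, beside a median of 0.058 over all such probes. Pdyn was 0.10 directly and 0.07 through CONT, Sst was -0.13 and -0.10, and Gal was 0.02 and 0.05. The gap of Trh, at -0.45, was larger in size than the 95th percentile of all bright probes, 0.27.

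**Figure D4:**
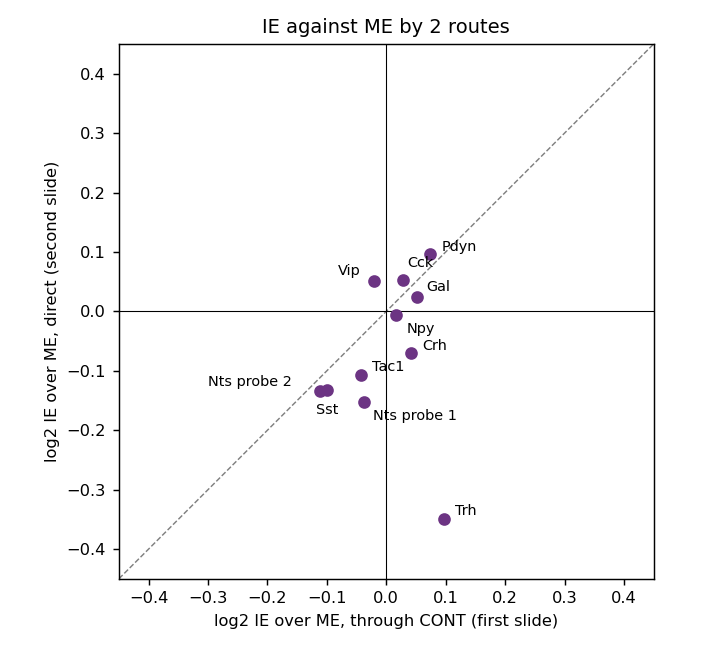
Log2 ratio of IE over ME through CONT on the first slide (x axis) and measured directly on the second slide (y axis) for each neuropeptide probe; the dashed line marks equal values. The points of 10 probes lie within 0.115 of the line and Trh lies 0.45 below it.

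The same 2 limits were applied to lists of the partners of these peptides. All 30 receptor genes of a list drawn up for these and related peptides were on the array, with 35 probes, of which 27 and 28 were bright in the ME and IE comparisons with CONT and 21 in IE vs ME. None of the 35 was called by ratio and p, and none of the bright ones passed 1.2-fold on both arrays. That count of 0 was near the share of all bright probes (0.997%, 0.414% and 0.608%). The bright receptor probes lay between -0.18 and 0.24, -0.49 and 0.28, and -0.31 and 0.39, with medians of -0.03, 0.0082 and -0.01. Some dim probes were past 1.2-fold on both arrays. In ME vs CONT these were Ntsr1 (-0.61 and -0.66), Vipr1 (0.32 and 0.35) and 1 of 2 for Oprm1 (-0.27 and -0.89). In IE vs ME it was Npy4r (-0.38 and -1.33). The receptors of TRH differed in direction. Trhr was -0.25 and -0.74 in IE vs CONT (mean -0.49 ± 0.34) and Trhr2 was 0.19 and 0.36 (mean 0.28 ± 0.12). In ME vs CONT their means were -0.17 ± 0.31 and 0.07 ± 0.19.

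Enzymes and granule proteins of the peptide pathway, such as prohormone convertases, carboxypeptidase E and chromogranins, gave 26 probes for 18 of 19 genes. In each comparison 24 were bright, and 0 passed either limit, where 0.414% to 0.997% of all bright probes passed 1.2-fold. The dim probe of Qpct was past 1.2-fold in IE vs CONT, at -0.38 and -0.53. The bright probes of this list had medians of 0.02, -0.01 and -0.0029 and lay between -0.14 and 0.12. Enzymes and binding proteins that clear peptides gave 22 probes for 12 genes. Of these, 1 of the 2 probes of Dpp4, a membrane peptidase that trims NPY among other peptides, passed 1.2-fold in IE vs ME at -0.48 and -0.35 (mean -0.41 ± 0.090), with signals of 43.1 to 81.9. That probe was 0.22 and 0.29 in ME vs CONT and 0.43 and -0.20 in IE vs CONT. The arrays disagreed in direction for the other Dpp4 probe in IE vs ME, at 0.44 and -2.46 with readings not all well above background, and it was 1.15 and 0.14 in ME vs CONT and 0.24 and -0.51 in IE vs CONT.

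Other neuropeptide precursors gave 42 probes for 35 of 40 genes. The only bright probe past 1.2-fold on both arrays was 1 of the 2 of Ghrh, the growth hormone-releasing hormone, at 0.41 and 0.33 in ME vs CONT (mean 0.37 ± 0.057). Its processed signals there were 16.1 to 26.0, and in IE vs CONT, where not all of its readings were well above background, its mean was 0.03 ± 0.042. The other Ghrh probe, with signals of 167 to 247, was 0.11 and -0.05 in ME vs CONT (mean 0.03 ± 0.11), so the probes of this gene disagreed. The bright probes of this list had medians of 0.02, 0.03 and 0.04.

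Markers of GABAergic interneurons, which make NPY, somatostatin, VIP and cholecystokinin, were read by the same limits. Of 23 probes for 17 genes, 0 passed either limit, and bright probes lay between -0.19 and 0.17. Of all bright probes, 0.414% to 0.997% passed 1.2-fold. Their summed signal on the first slide was 32068 to 32485 in CONT, 32247 to 33536 in ME and 30517 to 32285 in IE. Markers of hippocampal principal neurons (11 probes for 9 of 11 genes, all bright against CONT) also held 0 probes past a limit.

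Listed genes of some neighbouring tissues differed between the pools, in lists drawn up with earlier results of these data known. By ratio and p, 0.122% of all probes were called in ME vs CONT and 0.0293% in IE vs CONT. On the first slide the summed signal of 10 choroid plexus probes was 2761 to 3397 in CONT, 3410 to 3564 in ME and 6469 to 7024 in IE, and 4 of them were called in IE vs CONT and 3 in ME vs CONT. Ttr alone read 3313 and 2943 in IE, beside 489 and 611 in CONT on those arrays. The median bright choroid plexus probe was 0.33 in IE vs CONT and 0.13 in ME vs CONT. Kcnj13, called in IE vs CONT, had readings there that were not all well above background. The summed signal of 12 meningeal probes was 6017 to 6787 in CONT, 12006 to 12382 in ME and 6215 to 6358 in IE, with 7 called in ME vs CONT. The 5 cerebellar probes summed to 334 to 363 in CONT, 459 to 465 in ME and 331 to 390 in IE. Pcp2 alone read 214 to 284 on these arrays and passed neither limit in ME vs CONT, at 0.41 and 0.21. Gabra6 was called in ME vs CONT at 2.92 and 2.64, with readings not all well above background, and Car8 passed 1.2-fold there at 0.27 and 0.81. The 6 thalamic probes kept on all arrays summed to 1414 to 1521, 1672 to 1721 and 1552 to 1587. Thalamic markers did not move as 1 group in ME vs CONT: Prkcd passed 1.2-fold at 0.46 and 0.27, and Tnnt1, which is outside that sum because of a spot left out as an outlier, passed it in the other direction at -0.39 and -0.63. Markers of the hypothalamus, which makes TRH, CRH and GHRH, were 795 to 1014 in CONT, 835 to 950 in ME and 973 to 1042 in IE, and striatal markers were 910 to 976, 918 to 962 and 952 to 1005, with 0 probes of either list past a limit. The part of these tissues in the ratios of Trh, Ghrh and the other peptide genes was not tested.

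**Figure D5:**
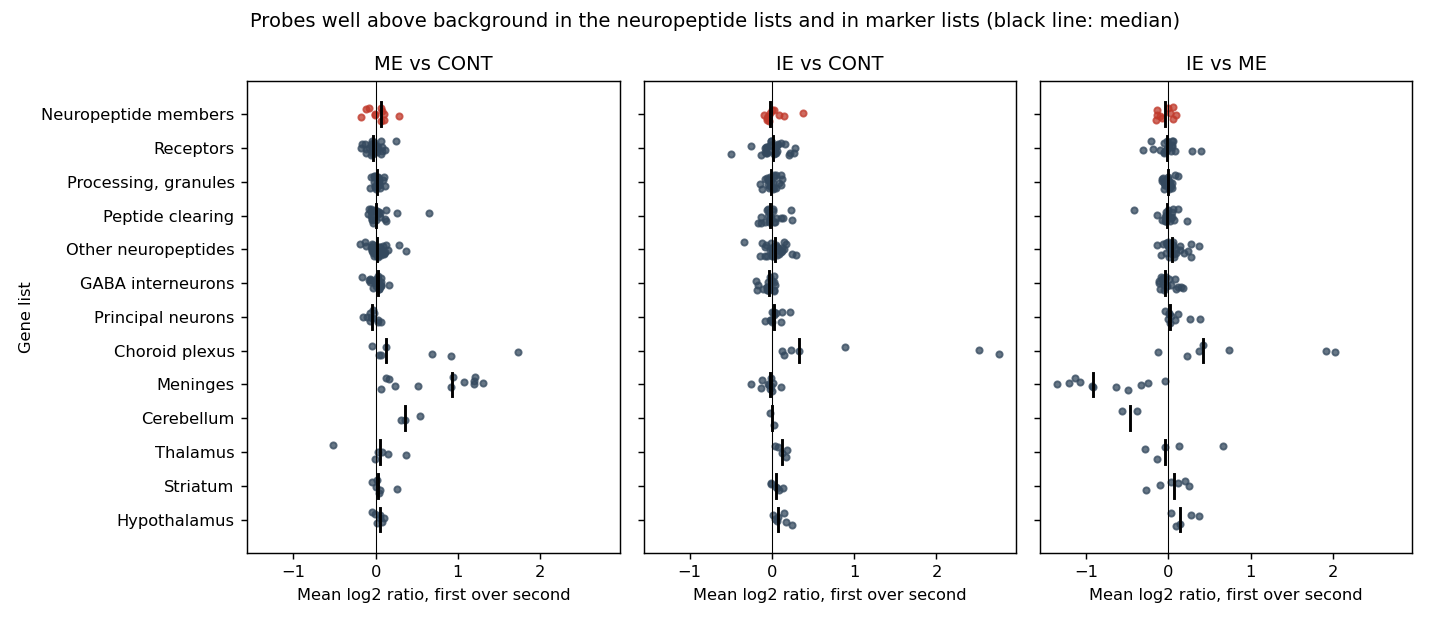
Mean log2 ratio (x axis, first-named pool over second) of every probe well above background in the neuropeptide genes (red) and in the other lists (blue; rows), with the median as a black line. The peptide, receptor, processing and interneuron lists centre near 0 in all panels, while choroid plexus probes reach 2.76 in IE vs CONT and meningeal probes have medians of 0.93 in ME vs CONT and -0.91 in IE vs ME.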

How the data were processed

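Total RNA of rat hippocampus was measured on 6 2-colour Agilent 4x44K arrays. The labels number the arrays of a swap Pool 1 and Pool 2, but the study's methods give each group 1 pool of 5 rats, which was taken as correct. Per the file headers, the authors extracted the spots with Agilent Feature Extraction 9.5.3.1 (rn3) on the first slide and 11.0.1.1 (rn4) on the second. The log10 ratio deposited by the authors is Cy5 over Cy3 per spot after background subtraction and LOWESS, the deposited p-value rests on the error model of that software, and the deposited processed and raw signals are intensity values. The deposited value table holds log10 ratios, with array 2 of each swap already turned.

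Control features (1639 of 45018) and outlier spots (92 to 302 per array) were left out, ratios were converted to log2, turned to exercise over CONT or IE over ME, and averaged over the spots of a probe, with the median p. In both channels 66.5% to 74.4% of spots were well above background, and 0 were saturated. The number of arrays limits the precision. Neither limit is a test across rats. The limits were also run on simulated data. Alternatives were other ratio and p limits, no background filter, normexp (offset 50) with loess and loess alone (limma 3.58.1, R 4.3.3), the value table, outlier spots kept, each array alone and a joint fit of the 6 arrays. Promoter letters were read from RefSeq (GRCr8).

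The 10 genes and the gene lists were chosen with earlier results of these data known. All 10 were named with every probe. Of the receptor, processing, clearing and other neuropeptide lists, genes past a limit (at most 4 per list and comparison) and the receptors of a gene past a limit were named. Some dim genes past 1.2-fold only without the background filter were named too.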

Additional observations from a re-analysis of the deposited data

How the results depend on the processing

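The count of neuropeptide probes called by ratio and p was 0 in each comparison under every alternative tried: no p threshold, 1.5-fold on each array, the mean fold of the swap, outlier spots kept, the value table and each array alone. The count past 1.2-fold in IE vs CONT, 1 (Trh), was 0 at 1.5-fold, 0 after normexp and loess and 0 with loess without background subtraction. With each array alone it was 2 and 2 in IE vs CONT (Crh and Trh on array 1, Tac1 and Trh on array 2). It was 1 and 1 in ME vs CONT (Crh, then Trh) and 3 to 4 in IE vs ME. Passing on 1 array alone was common among the 41012 probes of the array. On arrays 1 and 2, 5520 and 4818 of them passed in IE vs CONT, and 5498 and 4642 in ME vs CONT. In IE vs ME 6447 and 6469 passed. Without the filter on background the neuropeptide count was 1 in IE vs ME, again Trh, where 1098 of all probes passed. The log2 ratio of Trh in IE vs CONT went from 0.38 to 0.094 and 0.13 under the other background corrections and to 0.23 in the joint fit, in ME vs CONT from 0.29 to 0.072, 0.060 and 0.43, and in IE vs ME from -0.35 to -0.05, -0.03 and -0.20; the cause was not tested. Beside Trh, only the ratio of Gal in ME vs CONT moved by more than the SD between arrays, from -0.12 to -0.08 after normexp and loess. No paired analysis was possible because the pools number 1 per group. Differences between rats cannot be seen in pooled RNA, and ratios near background, such as those of Trh, depend on how background is removed.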
